A study of Mus musculus with 8 samples.

Results

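The constitutive proteasome was followed in 45 genes, out of 12160 in the count table, whose symbols follow the pattern Psma, Psmb, Psmc, Psmd, Psme, Psmf or Psmg with a number, the 3 immunoproteasome genes Psmb8, Psmb9 and Psmb10 being set aside. By role they comprised 7 alpha and 7 beta subunits of the 20S core, 9 subunits of the base and 8 of the lid of the 19S regulatory particle, 6 activators or inhibitors and 7 assembly factors. The remaining 1, Psmc3ip, carries a matching symbol but encodes a partner protein in meiotic recombination and no subunit. All 45 had enough counts to be tested in each comparison.

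The cells were immortalized mouse pancreatic stellate cells (PSCs), the fibroblast-like cells of the pancreas that give rise to cancer-associated fibroblasts, seeded in Matrigel and grown for 4 days in DMEM with 10% FBS. For another 4 days they received medium conditioned by KPC pancreatic cancer organoids carrying an shRNA against Brca2 (shBrca2-CM, 3 domes of Matrigel culture), medium conditioned by KPC organoids with a control shRNA (shControl-CM, 3 domes), or a control medium (2 domes). The control is called DMEM in the sample titles and the PSCs' own conditioned medium in the recorded treatment, so which of these it was is not settled here. Whether the control medium and the organoid media held the same amount of serum is not settled here either. All 3 groups are 1 immortalized line of the same genotype, the Brca2 silencing being in the cells that conditioned the medium, and the labels do not say whether the domes came from separate cultures, so p-values measure only the spread between these domes.

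The proteasome degrades proteins tagged with ubiquitin. Its 20S core is a barrel of alpha and beta rings with the proteolytic sites inside, and the 19S particle, built from an ATPase base and a lid that removes ubiquitin, caps the barrel and feeds substrates into it. Subunits are assembled in fixed proportions with the help of dedicated chaperones, other activators such as PA28 and PA200 can replace the 19S cap, and interferon induces PA28 together with the immunoproteasome subunits that replace the constitutive catalytic ones.

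The 2 control domes held 4623846 and 5476988 counts, the shControl-CM domes 1093609 to 1624392 and the shBrca2-CM domes 655996 to 1095534, so the conditioned-medium libraries were the shallower ones. The values are 3′-end counts, given here as CPM (counts scaled to a fixed library total, after TMM normalization) unless stated otherwise. Of the shControl-CM domes, dome 3 stood apart: a chi-square statistic per degree of freedom was 9.17 against dome 1 and 4.59 against dome 2, compared with 3.22 between domes 1 and 2 and 1.78 to 2.09 among the shBrca2-CM domes. The 2 control domes gave 7.11 against each other. This statistic grows with the counts per library, and the control libraries were the deepest, so it does not rank the groups by their spread. All 11 fibroblast and stellate markers were in the table, and their summed levels ran from 7184 to 8774 CPM in the control domes, from 4681 to 5673 CPM with shControl-CM and from 3975 to 4536 CPM with shBrca2-CM. The markers did not share one direction. Against control Vim was at 0.0958-fold with shControl-CM and 0.156-fold with shBrca2-CM, while Dcn was at 22.7-fold and 11.8-fold. Of 10 epithelial markers 4 were in the table, with sums, in the same order, of 51.2 to 56.1, 72.5 to 82.9 and 76.7 to 125 CPM, and the defining Epcam and Cdh1 were not. These too were split: with shControl-CM against control Krt18 was at 5.37-fold, Muc1 at 3.91-fold, Sox9 at 0.991-fold and Krt19 at 0.110-fold. Between the conditioned media Krt19 was higher with shBrca2-CM (log2 fold change 2.12, adjusted p = 0.0632, edgeR). Of 7 immune markers 3 were in the table (41.7 to 61.0, 124 to 259 and 100.8 to 152 CPM), without Ptprc, and the 2 of 4 endothelial markers in the table summed to at most 3.48 CPM. The 8 proliferation genes summed to 1047 to 1151, 1398 to 1632 and 1336 to 1458 CPM. The part of these differences in the results below was not tested, and in bulk samples such as these fewer cells of a type and less RNA per cell cannot be told apart.

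The share of the library spent on the proteasome was much the same in all media, while the shares of some of its parts were not. The 45 genes took 0.940%, 0.916% and 0.893% of the counts in the shBrca2-CM domes, 0.926%, 0.951% and 0.930% in the shControl-CM domes, and 0.889% and 0.893% with control medium. The shBrca2-CM range reached down to the control values and overlapped the shControl-CM range. On the TMM scale the shControl-CM domes stood above the others, at 0.944% to 1.03%, beside 0.869% to 0.892% for shBrca2-CM and 0.846% and 0.888% for control medium. Genes of the base and lid took 0.418% and 0.425% of the counts in the control domes, below the 0.461% to 0.508% of the shControl-CM domes and the 0.436% to 0.456% of the shBrca2-CM domes. On the TMM scale dome 2 of shBrca2-CM (0.420%) fell within the control values (0.398% and 0.423%). Activators and the inhibitor took 0.0640% and 0.0652% with control medium, 0.0511% to 0.0576% with shBrca2-CM and 0.0403% to 0.0434% with shControl-CM, so that the 3 groups did not overlap, on either scale. Assembly factors took 0.0453% and 0.0446% with control medium and 0.0261% to 0.0327% in the 6 conditioned-medium domes.

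**Figure D1:**
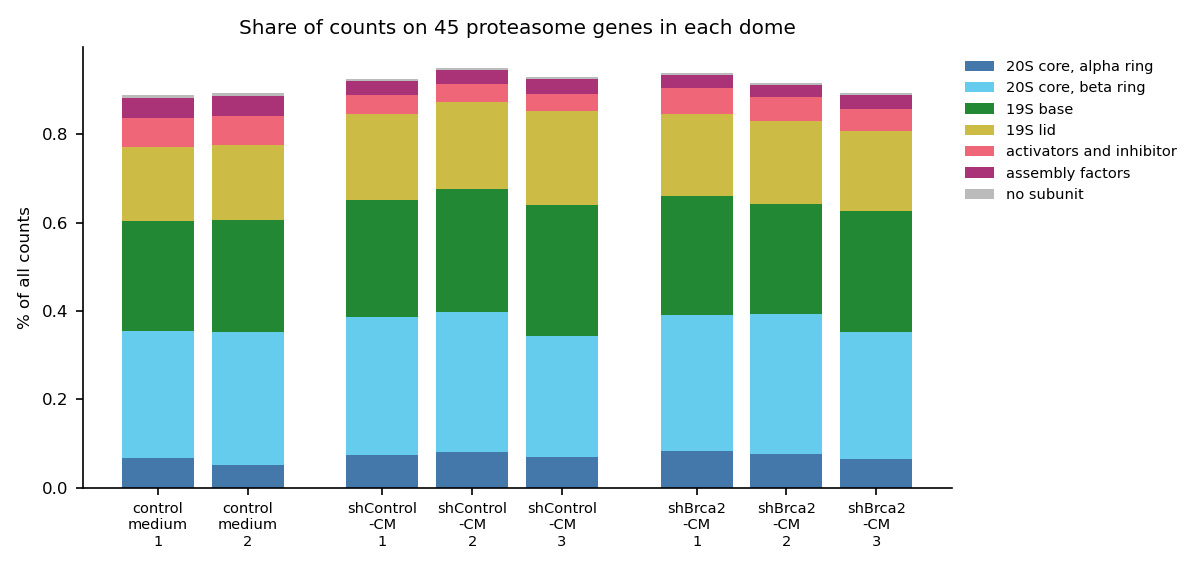
Share of all counts (%) on the 45 genes in each dome, stacked by role, as plain shares of the deposited counts. The total stays between 0.889% and 0.951% in all 8 domes, while the activator band is widest with control medium and narrowest with shControl-CM.

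The first comparison asked whether silencing Brca2 in the cancer cells changed how their medium acted on the proteasome genes of PSCs. A gene was called when edgeR's quasi-likelihood test gave a Benjamini-Hochberg adjusted p under 0.1, a log2 fold change past 0.5 in either direction, and the mean of its normalized counts exceeded 5. By this rule 1 of the 45 genes was called, Psmd2, against a background of 3.13% of the 11035 genes tested (1.58% higher and 1.55% lower). At 2.22% the proteasome genes were near the background share. None was called higher in this edgeR fit or by DESeq2, with 2 higher (4.44%) and 6 lower (13.3%) at an unadjusted p under 0.05 in edgeR, beside 6.71% and 6.68% of all genes. In edgeR Psme2b was called higher with scaling by total counts or with all 3 groups in one fit. With the fold threshold dropped Psmd2 was again the 1 gene called, beside 3.33% of all genes (1.72% higher and 1.61% lower). The median log2 fold change over the 45 genes was −0.12 (0.03 over all genes). With scaling by total counts in place of TMM the median of all genes moved to 0.14 and that of the proteasome genes to −0.0084, a gap of similar size, and the share of higher genes among all called genes went from 50.4% to 67.6%.

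Psmd2 encodes the large base subunit Rpn1, on which ubiquitin shuttles and the deubiquitinase Usp14 dock. It was at 214, 232 and 262 CPM with shBrca2-CM and at 318, 360 and 477 CPM with shControl-CM, and at 209 and 228 CPM with control medium. Each shBrca2-CM dome lay below every shControl-CM dome, the highest value being dome 3 of shControl-CM. Between the 2 media this amounted to a log2 fold change of −0.68 (SE 0.16, adjusted p = 0.0549, edgeR), a fold of 0.626. The call was lost when any 1 of the 3 shBrca2-CM domes or dome 2 of shControl-CM was left out, with log2 fold changes of −0.82 to −0.50 over the 6 fits and adjusted p of 0.00441 to 0.274. The last 300 bases of the Psmd2 transcript also have 1 near-identical copy elsewhere in the genome, between which reads could be split.

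In 10 of the 45 genes the 3 domes of one conditioned medium did not overlap those of the other, 22.2% against 19.8% of all genes tested. Psme2 and Psme2b lay higher with shBrca2-CM (background 9.14%), and 8 genes, Psmd2, Psmd7, Psmd13, Psmc3, Psma7, Psmb6, Psmg2 and Psmc3ip, lay lower (background 10.6%). Psme2b, a close copy of Psme2, was at 17.4, 23.6 and 13.3 CPM with shBrca2-CM and 5.13, 10.6 and 4.75 CPM with shControl-CM (log2 fold change 1.46, SE 0.42, adjusted p = 0.119, edgeR). These values rest on 7 to 19 counts per dome, and reads shared with Psme2 could be assigned to either. In the last 300 bases of the transcript Psme2b had 0 near-identical copies elsewhere in the genome and Psme2 had 1. Besides Psme2b, every log2 fold change of the 45 genes lay between −0.68 and 0.38.

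**Figure D2:**
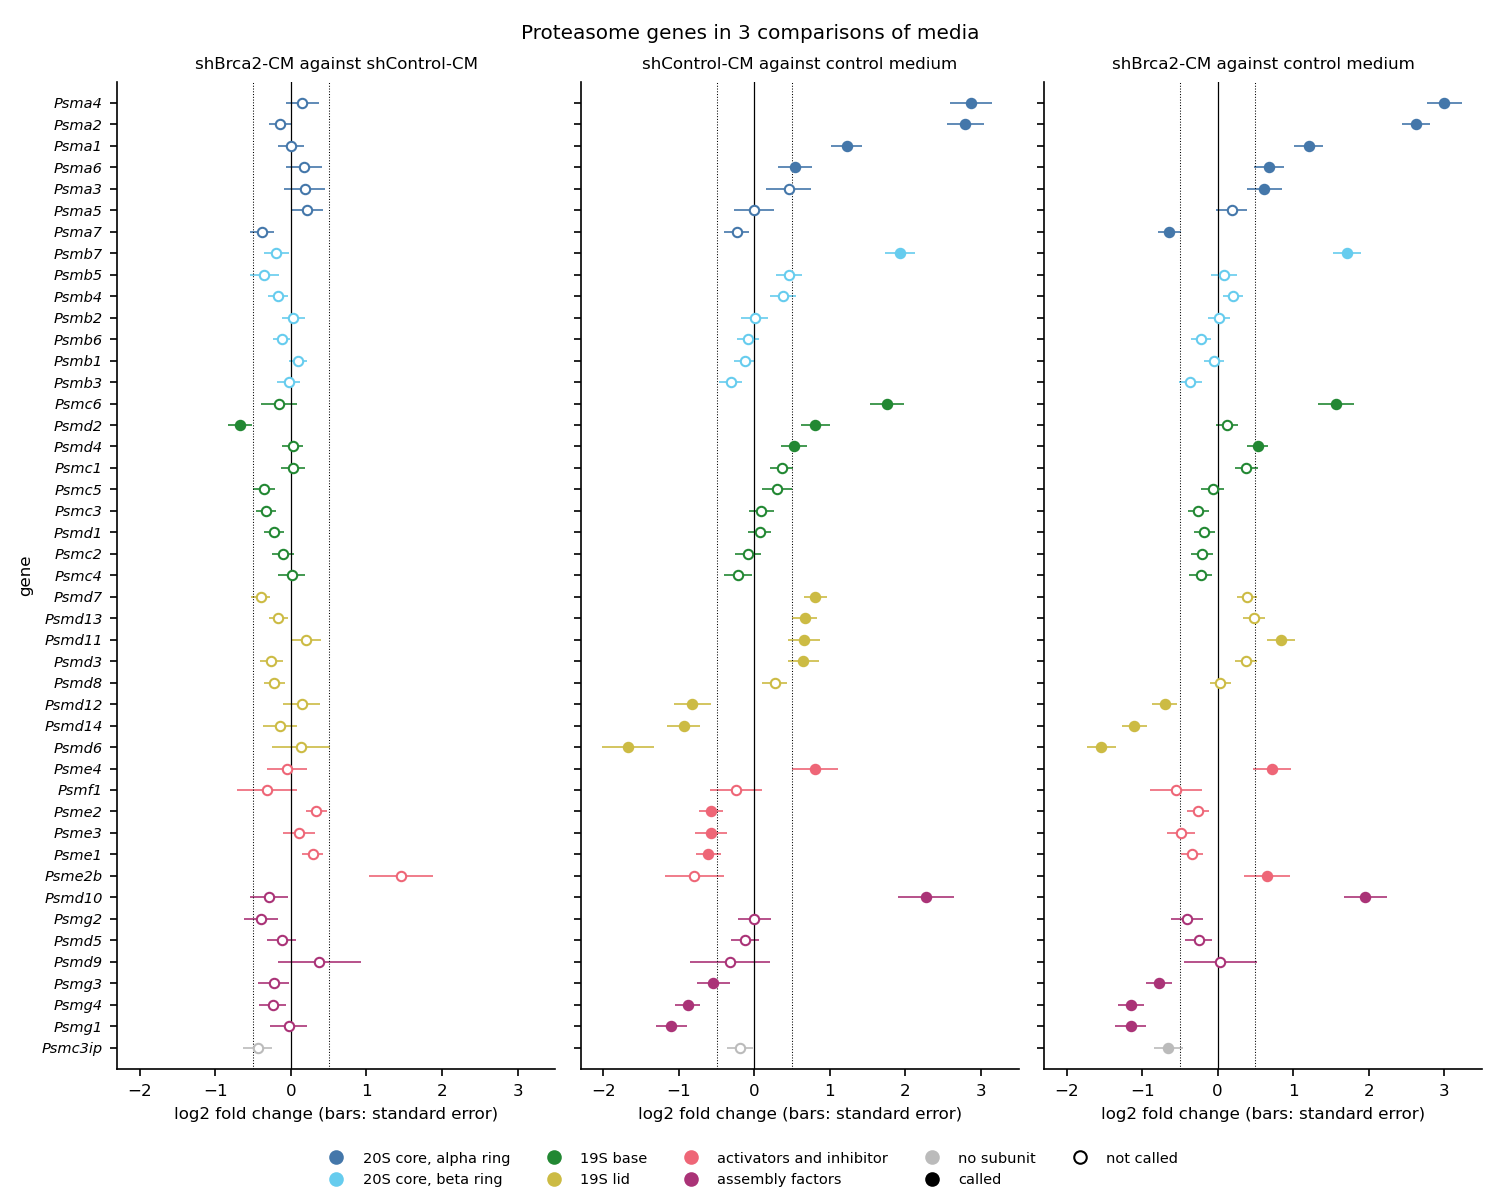
log2 fold change (x axis) of each of the 45 genes (y axis, grouped by role) in the 3 comparisons of media; bars are standard errors, filled points are genes called by edgeR and dotted lines mark the fold threshold of 0.5. Between the conditioned media 1 gene is called, whereas against control medium the genes of each complex spread on both sides of 0, from −1.67 to 2.87 with shControl-CM and from −1.54 to 3.0 with shBrca2-CM.

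The other comparisons set each conditioned medium against the control medium, and they share the 2 control domes. With shControl-CM 23 of 45 genes were called, 14 higher and 9 lower, which is 51.1% beside a background of 37.1% of 12086 genes (18.2% higher and 18.9% lower). With shBrca2-CM 20 of 45 were called, 12 higher and 8 lower, which is 44.4% beside 37.8% of 12049 genes (18.6% higher and 19.2% lower). With the fold threshold dropped, 25 genes passed with shControl-CM (16 higher and 9 lower, beside 41.9% of all genes, 19.5% higher and 22.4% lower) and 27 with shBrca2-CM (16 higher and 11 lower, beside 46.3%, 22.2% higher and 24.1% lower). The domes did not overlap the control domes in 30 genes with shControl-CM (17 higher and 13 lower, beside 59.9% of all genes, 26.8% higher and 33.1% lower) and in 33 with shBrca2-CM (15 higher and 18 lower, beside 57.4%, 26.1% higher and 31.3% lower). The higher genes were above the background share in each of these counts, whereas the lower genes were close to it except for the 18 without overlap, and the difference from the background was not tested. Without control dome 1 the count with shControl-CM was 10 (22.2%, beside 16.4% of all genes in the same fit), and without control dome 2 it was 15 (33.3% beside 19.3%). At an adjusted p under 0.05 and a log2 fold change over 1 the share with shControl-CM was 17.8%, below the 19.7% of all genes, and with shBrca2-CM 22.2% beside 18.1%. The median log2 fold change was 0.0038 with shControl-CM (−0.10 over all genes) and 0.02 with shBrca2-CM (−0.05 over all genes). Scaling by total counts moved the shControl-CM medians to −0.11 and −0.21. Medians near 0 hid opposite changes among the 45 genes, in subunits and assembly factors alike. Psma4, Psma2, Psma1, Psmb7, Psmc6 and Psmd10 rose by over 1 on the log2 scale with both media, and Psmd6 and Psmg1 fell by over 1 with both.

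In the alpha ring, which gates the entry to the core, Psma4 and Psma2 stood out. Psma4 was at 8.69 and 9.24 CPM with control medium, at 52.5, 60.9 and 84.2 CPM with shControl-CM and at 82.5, 56.0 and 77.2 CPM with shBrca2-CM. All 6 conditioned-medium domes were far above both control domes and the conditioned media overlapped each other. In edgeR it rose by 2.87 on the log2 scale with shControl-CM (SE 0.28, adjusted p = 7.44e-05, edgeR) and by 3.0 with shBrca2-CM (SE 0.23, adjusted p = 4.18e-17, edgeR), folds of 7.29 and 8.02. Psma2 was at 30.1 and 18.5 CPM with control medium, 149.9, 169 and 194 CPM with shControl-CM and 161, 138 and 156 CPM with shBrca2-CM. It too separated control from conditioned medium without overlap, with log2 fold changes of 2.80 (SE 0.24, adjusted p = 3.7e-05, edgeR) and 2.63 (SE 0.18, adjusted p = 1.33e-18, edgeR). Psma1 rose by less, from 36.0 and 28.4 CPM to 71.1, 86.0 and 71.3 CPM with shControl-CM and 83.9, 68.4 and 71.9 CPM with shBrca2-CM (log2 fold changes 1.23 and 1.20).

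Of the other 4 alpha genes, Psma6 was called higher with both media and Psma3 with shBrca2-CM, at log2 fold changes under 0.7. The Psma6 call with shControl-CM was lost without either control dome or without dome 1 or 2 of shControl-CM (adjusted p up to 0.432), that with shBrca2-CM without control dome 1 (log2 fold change 0.499), and the Psma3 call without control dome 2 (adjusted p = 0.118). DESeq2 made neither the Psma3 call nor the Psma6 call with shControl-CM. Both were also lost in libraries thinned to the smallest total count, the Psma3 call with all 3 groups in one fit, and the Psma6 call with scaling by total counts. Psma5 was not called, with log2 fold changes of at most 0.21 in the 3 comparisons. Its control domes were at 57.5 and 33.5 CPM. With 1 dome left out its log2 fold change with shBrca2-CM against control ran from −0.14 to 0.63. Psma7 went the other way: it was at 436 and 357 CPM with control medium, 326, 380 and 314 CPM with shControl-CM and 285, 285 and 199.7 CPM with shBrca2-CM. The shBrca2-CM domes all lay below both control domes and the shControl-CM domes overlapped them, and the call was made with shBrca2-CM (log2 fold change −0.64, SE 0.15, adjusted p = 4.01e-04, edgeR), a call lost without control dome 1 or without dome 3 of shBrca2-CM, where the fold change fell under the threshold, to as little as −0.48. The 2 conditioned media differed in Psma7 by −0.39 (adjusted p = 0.318, edgeR).

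The start regions of 2 of these alpha genes are shown because they had the largest rises, with capitals marking matches on either strand to 4 motifs. They are TGANNNNGC, the core of the antioxidant-type element used by Nfe2l1 (Nrf1), the known activator of proteasome genes, then the CCAAT box, then CCGGAAG, the letters of an ETS-type site, and GAANNTTC, those of a heat shock element. Each window runs 250 bases before to 50 bases after the RefSeq start on build GRCm38.p6, read 5′ to 3′ on the gene's strand. The Psma4 window (chr9:54950609-54950908, plus strand) holds TGANNNNGC 2 times, and the Psma2 window (chr13:14612992-14613291, plus strand) holds CCAAT 1 time and none of the other letters.
Psma4: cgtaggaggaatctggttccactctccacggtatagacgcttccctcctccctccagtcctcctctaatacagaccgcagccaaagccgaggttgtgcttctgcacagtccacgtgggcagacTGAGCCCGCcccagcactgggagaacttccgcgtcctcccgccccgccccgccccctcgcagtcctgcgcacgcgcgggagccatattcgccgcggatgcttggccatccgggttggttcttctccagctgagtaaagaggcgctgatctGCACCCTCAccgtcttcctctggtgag
Psma2: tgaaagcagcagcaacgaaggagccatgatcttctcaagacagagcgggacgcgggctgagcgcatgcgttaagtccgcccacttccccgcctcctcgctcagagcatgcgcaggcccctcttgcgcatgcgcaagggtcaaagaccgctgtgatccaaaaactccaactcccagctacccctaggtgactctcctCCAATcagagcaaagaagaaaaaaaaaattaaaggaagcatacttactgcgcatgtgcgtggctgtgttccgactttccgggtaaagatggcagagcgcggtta

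In the beta ring the proteolytic genes did not move together. Psmb7, which carries the trypsin-like activity, was at 26.2 and 27.1 CPM with control medium, 90.3, 99.5 and 117 CPM with shControl-CM and 101, 80.9 and 82.6 CPM with shBrca2-CM. All conditioned-medium domes were above the control domes, with log2 fold changes of 1.93 (SE 0.19, adjusted p = 9.71e-05, edgeR) and 1.72 (SE 0.19, adjusted p = 2.1e-11, edgeR). Psmb5, which carries the chymotrypsin-like activity, was at 98.9 and 96.7 CPM with control medium, 123, 127 and 157 CPM with shControl-CM and 136, 90.8 and 88.8 CPM with shBrca2-CM. The shControl-CM domes lay above the control domes, but the difference did not reach the fold threshold (log2 fold change 0.46, adjusted p = 0.0613, edgeR), and the shBrca2-CM domes overlapped both groups. Psmb6, which carries the caspase-like activity, had log2 fold changes of −0.09 and −0.22 against control (adjusted p = 0.676 and 0.189, edgeR). None of Psmb1, Psmb2, Psmb3 and Psmb4 was called, so 1 of the 7 beta genes passed in each comparison with control medium, which is 14.3% beside 37.1% of all genes with shControl-CM and 37.8% with shBrca2-CM. With 1 dome left out Psmb4 and Psmb5 were each called with shControl-CM in 1 fit (log2 fold changes up to 0.504 and 0.541). Psmb4 was also called in 1 other setting.

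**Figure D3:**
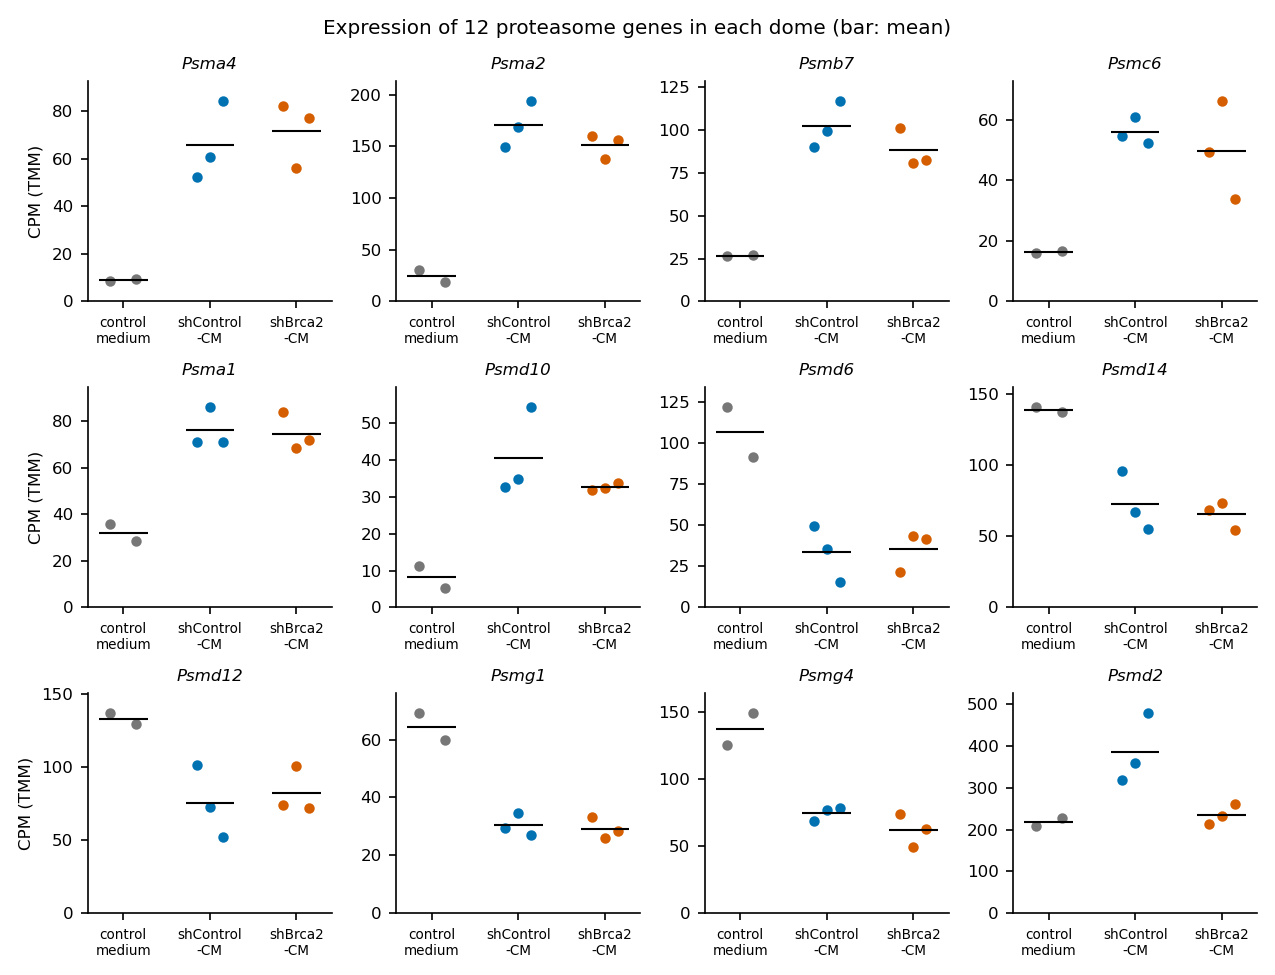
CPM (TMM, y axis from 0) of 12 proteasome genes in each dome, by medium (x axis); bars are means of 2 or 3 domes. Psma4, Psma2, Psmb7, Psmc6, Psma1 and Psmd10 are low in both control domes and high in all 6 others, Psmd6, Psmd14, Psmd12, Psmg1 and Psmg4 are the reverse, and Psmd2 is high in the shControl-CM domes, which lie between 318 and 477 CPM.

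In the 19S base, 6 ATPases form the ring that unfolds substrates and 1 of them changed strongly. Psmc6 was at 16.0 and 16.8 CPM with control medium, 54.5, 60.9 and 52.3 CPM with shControl-CM and 49.2, 66 and 33.7 CPM with shBrca2-CM. The 6 conditioned-medium domes were all above the controls and overlapped each other, with log2 fold changes of 1.76 (SE 0.22, adjusted p = 3.69e-04, edgeR) and 1.57 (SE 0.23, adjusted p = 1.45e-07, edgeR). The other ATPase genes, Psmc1 to Psmc5, lay between −0.26 and 0.38 in both comparisons and were not called. Psmd2 was called higher with shControl-CM (log2 fold change 0.81, SE 0.19, adjusted p = 0.00998, edgeR; adjusted p = 0.120 without control dome 1) and was at 0.12 with shBrca2-CM (adjusted p = 0.547, edgeR). Psmd4, the ubiquitin receptor Rpn10, was called higher with both, at 0.52 and 0.53, close to the threshold, and the calls were lost without either control dome or dome 3 of shControl-CM (down to 0.37) and without control dome 2 or dome 3 of shBrca2-CM (down to 0.46). The shControl-CM call of Psmd4 was also lost with scaling by total counts and in thinned libraries.

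The lid divided into 2 directions. Psmd6 (Rpn7) was at 121.5 and 91.4 CPM with control medium, 49.3, 35.8 and 15.6 CPM with shControl-CM and 21.7, 43.6 and 41.7 CPM with shBrca2-CM. All conditioned-medium domes were below the controls, with dome 3 of shControl-CM the lowest, and the log2 fold changes were −1.67 (SE 0.34, adjusted p = 0.00499, edgeR) and −1.54 (SE 0.20, adjusted p = 3.26e-09, edgeR). Psmd14 (Rpn11), the metalloprotease that cuts ubiquitin chains off the substrate, was at 140.2 and 137 CPM with control medium, 95.5, 66.7 and 55 CPM with shControl-CM and 68.0, 73.4 and 54.2 CPM with shBrca2-CM. It fell by 0.94 on the log2 scale with shControl-CM (SE 0.22, adjusted p = 0.0102, edgeR) and by 1.10 with shBrca2-CM (SE 0.17, adjusted p = 2.17e-07, edgeR), again without overlap. Psmd12 (Rpn5) fell by 0.82 and 0.70 (adjusted p = 0.0259 and 4.36e-04, edgeR), from 136 and 129 CPM to 52.3 to 101 CPM in the other 6 domes. Without control dome 1 the shControl-CM calls of Psmd6, Psmd14 and Psmd12 had adjusted p of 0.101, 0.106 and 0.183, and that of Psmd12 was also lost without control dome 2 (0.133) or without dome 2 of shControl-CM (0.107), with the direction unchanged.

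In the same lid Psmd11 was called higher with both media, and Psmd3, Psmd7 and Psmd13 with shControl-CM, at log2 fold changes between 0.65 and 0.84. Psmd3, Psmd7 and Psmd13 also rose with shBrca2-CM, by 0.37, 0.39 and 0.48 (adjusted p = 0.032, 0.0199 and 0.00659, edgeR), below the fold threshold. With shControl-CM the call of Psmd11 was lost without either control dome or without dome 2 of shControl-CM (adjusted p up to 0.185) and in thinned libraries, that of Psmd3 without control dome 1 or dome 3 of shControl-CM (adjusted p up to 0.292), and that of Psmd13 without control dome 1 (adjusted p = 0.131). Psmd7 (Rpn8), the partner that forms the active pair with Psmd14, was at 364 and 348 CPM with control medium, 561, 632 and 687 CPM with shControl-CM and 464, 489 and 445 CPM with shBrca2-CM. Its 3 groups did not overlap, with shBrca2-CM in the middle, while Psmd14 was at its highest in the control domes. Psmd7 was named here after its values were seen.

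The start regions of Psmd6 and Psmd14 are shown as the lid genes with the largest falls, with capitals as above. The Psmd6 window (chr14:14120896-14121195, minus strand) holds CCGGAAG 1 time, and the Psmd14 window (chr2:61711444-61711743, plus strand) holds CCAAT 3 times, of which 1 forward and 1 reverse match overlap each other.
Psmd6: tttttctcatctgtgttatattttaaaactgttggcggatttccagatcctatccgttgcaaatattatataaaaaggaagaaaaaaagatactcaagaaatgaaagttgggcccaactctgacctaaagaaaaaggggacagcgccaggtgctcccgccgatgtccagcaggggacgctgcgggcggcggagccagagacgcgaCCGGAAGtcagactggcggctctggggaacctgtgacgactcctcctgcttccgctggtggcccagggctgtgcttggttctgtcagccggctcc
Psmd14: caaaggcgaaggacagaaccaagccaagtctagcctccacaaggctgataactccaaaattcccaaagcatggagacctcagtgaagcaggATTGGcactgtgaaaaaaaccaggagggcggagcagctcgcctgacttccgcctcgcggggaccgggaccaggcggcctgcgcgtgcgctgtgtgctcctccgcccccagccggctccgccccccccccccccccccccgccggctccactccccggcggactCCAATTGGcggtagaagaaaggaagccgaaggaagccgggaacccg

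Start windows from RefSeq were at hand for 38 of the 45 genes, 41 windows in all, among 12339 windows for genes of the table. TGANNNNGC was in 56.1% of the 41 windows and 42.7% of all windows, CCAAT in 31.7% and 37.7%, CCGGAAG in 39.0% and 17.2%, and GAANNTTC in 4.88% and 5.52%. The CCGGAAG letters were in 9 of the 14 base and lid genes with a window (among them Psmc6 and Psmd2, which rose with shControl-CM, and Psmd6 and Psmd12, which fell) and in 1 of the 11 core genes, Psma6. The TGANNNNGC letters were in 8 of the 11 core genes and 6 of the 14 base and lid genes. These are matches of letters within fixed windows and describe no binding.

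Among the activators, the PA28 genes Psme1 and Psme2 were on average at their highest with control medium and at their lowest with shControl-CM. Psme1, the alpha subunit of PA28, was at 266 and 320 CPM with control medium, 184, 174 and 221 CPM with shControl-CM and 242, 236 and 219 CPM with shBrca2-CM. Both conditioned media lay below the controls and overlapped each other in 1 dome of shControl-CM. Against control the log2 fold changes were −0.61 for shControl-CM (SE 0.17, adjusted p = 0.0198, edgeR) and −0.33 for shBrca2-CM (SE 0.14, adjusted p = 0.0572, edgeR), the latter below the fold threshold. Psme2, the beta subunit, was at 239 and 216 CPM with control medium, 169, 143 and 148 CPM with shControl-CM and 199.6, 189 and 184 CPM with shBrca2-CM. Here the 3 groups did not overlap, with −0.57 against control for shControl-CM (SE 0.16, adjusted p = 0.0199, edgeR) and −0.25 for shBrca2-CM (SE 0.14, adjusted p = 0.161, edgeR). The 2 conditioned media themselves differed by 0.29 in Psme1 (SE 0.14, adjusted p = 0.398, edgeR) and 0.34 in Psme2 (SE 0.14, adjusted p = 0.299, edgeR), so a difference between them was not detected at this depth and number of domes. The shControl-CM call of Psme1 was lost without control dome 2 (adjusted p = 0.176) and that of Psme2 without control dome 1 (0.175).

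The immunoproteasome genes, which interferon induces together with PA28, are set beside them here. Psmb10, which replaces Psmb7 in the immunoproteasome, was at 274 and 372 CPM with control medium, 126, 124 and 186 CPM with shControl-CM and 195, 172 and 159 CPM with shBrca2-CM. It was called lower with both, with log2 fold changes of −1.16 (adjusted p = 0.00283, edgeR) and −0.89 (adjusted p = 2.32e-06, edgeR), in the same domes in which Psmb7 was high. Psmb9, which replaces Psmb6, was at 53.9 and 69.4 CPM with control medium, 16.0, 29.0 and 23.8 CPM with shControl-CM and 34.7, 28.6 and 31.1 CPM with shBrca2-CM, with log2 fold changes of −1.46 and −0.97 (adjusted p = 0.00266 and 1.14e-04, edgeR). Psmb8, which replaces Psmb5, was not called, at −0.19 and 0.05. Between the conditioned media none of the 3 was called by edgeR or DESeq2, and none had an unadjusted p under 0.05 in edgeR, with log2 fold changes of 0.25 to 0.50.

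**Figure D4:**
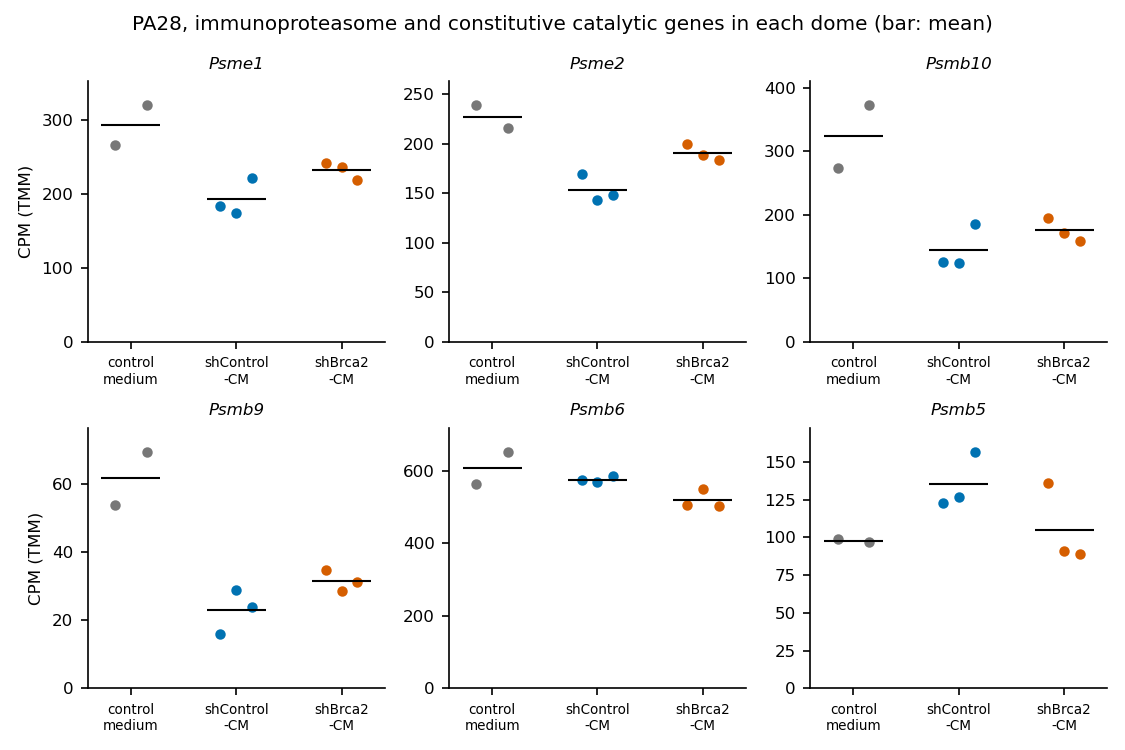
CPM (TMM, y axis from 0) of the PA28 genes Psme1 and Psme2, the immunoproteasome genes Psmb10 and Psmb9 and the constitutive catalytic genes Psmb6 and Psmb5 in each dome, by medium (x axis); bars are means of 2 or 3 domes. For Psme1, Psme2, Psmb10 and Psmb9 both control domes lie above all 6 conditioned-medium domes.

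The remaining activators and the inhibitor did not share one direction. Psme3, the nuclear PA28 gamma subunit, was at 60.0 and 70.5 CPM with control medium and at 36.0 to 53.2 CPM in the other 6 domes, with log2 fold changes of −0.58 and −0.49, of which the first was called (adjusted p = 0.061, edgeR; 0.111 to 0.327 without dome 3 of shControl-CM or either control dome), a call that DESeq2 did not make and that was also lost in thinned libraries. Psme4, which encodes PA200, was at 21.6 and 14.4 CPM with control medium and at 26.5 to 41.6 CPM in the others, and was called higher with both media (log2 fold changes 0.80 and 0.72, adjusted p = 0.0659 and 0.0171, edgeR). With shControl-CM that call was lost without either control dome or without dome 2 of shControl-CM (adjusted p of 0.127 to 0.381), and in thinned libraries or with scaling by total counts, and DESeq2 did not make it, while with shBrca2-CM it was lost without control dome 2 (0.162). Psme2b was called higher with shBrca2-CM (0.65, adjusted p = 0.0822, edgeR), a call that DESeq2 did not make and that was lost with all 3 groups in one fit and without either control dome or without dome 1 or 2 of shBrca2-CM (up to 0.394). Psmf1, the inhibitor PI31, had −0.24 and −0.55 and was not called.

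Of the 7 assembly factors, 3 were called lower and 1 higher in each comparison with control medium, which is 57.1% beside 37.1% of all genes with shControl-CM and 37.8% with shBrca2-CM. Psmg1, Psmg3 and Psmg4, of the chaperone pairs that build the alpha ring, were called lower with both media. Psmg1 was at 69.0 and 60.0 CPM with control medium, 29.5, 34.8 and 27.2 CPM with shControl-CM and 33.3, 26.1 and 28.4 CPM with shBrca2-CM, and Psmg4 was at 126 and 149 CPM, then 68.6, 77.3 and 78.8 CPM and 73.8, 49.8 and 63.0 CPM. In both genes every conditioned-medium dome was below both controls. The log2 fold changes were −1.10 and −1.15 for Psmg1 (adjusted p = 0.00331 and 6.5e-06, edgeR) and −0.88 and −1.15 for Psmg4 (adjusted p = 0.00359 and 1.56e-07, edgeR). Psmg3 had −0.54 and −0.78 (adjusted p = 0.0764 and 1.53e-04, edgeR), and its call with shControl-CM was lost without either control dome or without dome 1 or 2 of shControl-CM (0.162 to 0.330) and in DESeq2. Psmg2, the partner of Psmg1, was not called, at 0.0021 and −0.40.

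The 1 called higher was Psmd10 (gankyrin), a chaperone of the base. It was at 11.1 and 5.37 CPM with control medium, 32.7, 34.8 and 54.3 CPM with shControl-CM and 31.8, 32.4 and 33.7 CPM with shBrca2-CM, all above both controls. The log2 fold changes were 2.27 (SE 0.37, adjusted p = 0.00159, edgeR) and 1.96 (SE 0.28, adjusted p = 7.28e-08, edgeR). The other base chaperones, Psmd5 and Psmd9, were not called, at −0.33 to 0.04, Psmd9 on as few as 2 counts in a dome. Psmc3ip, the gene that is no subunit, was called lower with shBrca2-CM (−0.66, SE 0.19, adjusted p = 0.00482, edgeR).

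Ribosomal protein genes, also subunits of one particle, spread about as widely as the proteasome genes. The SD of the log2 fold changes over the 45 genes was 0.327 between the conditioned media, 0.960 with shControl-CM against control and 0.936 with shBrca2-CM against control. Over the ribosomal protein genes, examined after the proteasome values were seen, it was 0.325 (80 genes), 0.985 and 0.993 (81 genes), with a range of −2.63 to 3.63 for shControl-CM against control. Over all genes tested it was 0.618, 1.36 and 1.20. The G and C content of the last 300 bases of the transcript, the stretch that 3′-end libraries read, had a Spearman coefficient with the log2 fold change against control of 0.289 over 11767 genes with shControl-CM and 0.249 over 11730 genes with shBrca2-CM. Over the 45 proteasome genes it was −0.096 and −0.213. Between the conditioned media it was −0.345 over the 45 genes and −0.117 over 10758 genes, and genes are not independent replicates. Of the 45 genes, the last 300 bases of Psma5, Psmb2, Psmb3, Psmd2 and Psme2 had near-identical copies elsewhere in the genome (at least 95% identity over at least 150 bases), so that their counts are uncertain. The part of sequence content, depth or the 2 control domes in the spread was not tested.

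In the wider ubiquitin and proteasome pathway, 25 further genes were in the table. Of these, 8 were called higher and 6 lower with shControl-CM against control, which is 32% and 24% beside 18.2% and 18.9% of all genes, and 3 higher and 5 lower with shBrca2-CM, which is 12% and 20% beside 18.6% and 19.2%. Leaving out either control dome lowered the shControl-CM counts of pathway genes called, and it also lowered the share of all genes called. With shBrca2-CM 6 of 24 were called higher without control dome 2 (25% beside 19.4% of all genes in that fit) and 6 of 23 in thinned libraries (26.1% beside 16.2%). Between the conditioned media none of the 23 tested was called by edgeR or DESeq2, with 0 higher and 4 lower (17.4%) at an unadjusted p under 0.05, beside 6.71% and 6.68% of all genes. Without dome 1 of shControl-CM edgeR called 5 of them (21.7%) lower with shBrca2-CM (among them Nfe2l1 and Pomp, named after their values were seen), in a fit that called 4.38% of all genes lower. As in the proteasome itself, relatives split. Ubqln1, a shuttle that carries ubiquitinated proteins to the proteasome, was at 38.9 and 35.0 CPM with control medium and at 97.6 to 145 CPM in the other 6 domes (log2 fold changes 1.62 and 1.82). Its relative Ubqln2 was at 136 and 95.2 CPM with control medium and at 6.79 to 39.1 CPM in the others (−2.16 and −1.73), the lowest being dome 3 of shControl-CM, and its shControl-CM call was lost without control dome 1 (adjusted p = 0.104).

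Rps27a, which encodes ubiquitin fused to a ribosomal protein, was called higher with both media (1.77 and 1.72). Pomp, the chaperone that matures the core, was called higher with shControl-CM (0.94; lost without control dome 1, adjusted p = 0.132), with 264 and 306 CPM in the control domes, 399, 553 and 694 CPM with shControl-CM and 381, 403 and 373 CPM with shBrca2-CM. Sem1, a small lid subunit, was called lower with both (−0.97 and −1.08). Nfe2l1, the transcription factor that raises proteasome genes when the proteasome is impaired, was not called with all domes, at 176 and 182 CPM with control medium, 187, 201 and 279 CPM with shControl-CM and 184, 139 and 171 CPM with shBrca2-CM, where dome 3 of shControl-CM was the highest.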

How the data were processed

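RNA of 8 domes of PSCs was sequenced from the 3′ end with a variation of MARS-seq. The authors deposited raw read counts per gene. The submitters' processing notes name STAR 2.4.2a, bcl2fastq, cutadapt, HTSeq and DESeq2 and the build mm10, while the role of each tool and any use of molecular identifiers are not given in the sources used here. The table also held 1 sample column that no sample label matches, which was left out. Samples were grouped by their recorded treatment, and no batch is given.

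Pairs of groups were compared in R 4.3.3 with the quasi-likelihood test of edgeR 4.0.16, after TMM scaling and removal of genes under 10 counts in the domes compared, and p-values were adjusted by Benjamini-Hochberg over all genes tested. The test was tried on simulated data. Standard errors were taken from the log2 fold change and the F statistic. The alternatives were DESeq2 1.42.0, other scalings and filters, a joint fit, thinned libraries, the replicate block and each dome left out. The depth was 655996 to 5476988 counts per dome, and intervals of counts cover counting error only. Transcript ends were searched in GRCm39 with minimap2 2.31.

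The 45 genes and all lists were chosen with earlier results of these data known. Named with values were the 3 catalytic genes, all activators and assembly factors, and of the others those called, at most the 5 largest in each direction per comparison. Other genes with values were chosen after their values were seen.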

Additional observations from a re-analysis of the deposited data

Results flagged for a closer look

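Psmd2 was the single proteasome gene whose level after the 2 conditioned media differed in the test of that difference, which is why it is listed here. Its log2 fold change with shBrca2-CM against shControl-CM was −0.68 (SE 0.16, adjusted p = 0.0549, edgeR). DESeq2's likelihood ratio test gave −0.70 (adjusted p = 0.0102). With 45 genes and a background of 3.13% of genes called, 1 call is near the background share. The gene was lower in 3 of 3 shBrca2-CM domes than in every shControl-CM dome.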

How the results depend on the processing

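The limits are few domes, control libraries deeper than the others, and 2 control domes on which both comparisons with control rest. Fits without 1 control dome assume that the other varies like the second group. Between the conditioned media 1 gene was called (2.22%, beside 3.13% of all genes). Scaling by total counts and all 3 groups in one fit each gave 2 (4.44%, beside 3.35% and 3.52%), Psme2b being added at log2 fold changes of 1.57 and 1.45. At the stricter thresholds (adjusted p of 0.05, log2 fold change of 1) there were 0, beside 1.18% of all genes. With 1 dome left out there were 0 to 2 (2 without dome 1 of shControl-CM, 4.44% beside 9.09%, where Psmd7 was added at −0.50). Against control medium the stricter thresholds gave 8 genes with shControl-CM in place of 23 (17.8% beside 19.7% of all genes) and 10 with shBrca2-CM in place of 20 (22.2% beside 18.1%), and leaving out 1 dome gave 10 to 22 and 18 to 22. The share of all genes called ran from 1.18% to 9.09% between the conditioned media, from 16.4% to 42.8% with shControl-CM and from 32.5% to 37.6% with shBrca2-CM over the fits with 1 dome left out. DESeq2's likelihood ratio test called 1, 19 and 18 in the 3 comparisons (2.22%, 42.2% and 40% of the 45 genes, beside 2.56%, 29% and 30.4% of all genes). No called fold change named here turned its direction in any alternative run. With the replicate number as a block the counts were 1, 22 and 19 (2.22%, 48.9% and 42.2%, beside 2.82%, 37.9% and 32.4%), and the calls of Psmd3, Psmd4 and Psme3 with shControl-CM and of Psma7 and Psmd4 with shBrca2-CM were not made. The numbers were not taken as pairing the samples, since the correlations of same-numbered domes of the conditioned media were −0.0483, 0.0172 and 0.146. With TMM-scaled values the mean share of the 45 genes was 0.881% with shBrca2-CM, 0.992% with shControl-CM and 0.867% with control medium, in place of 0.917%, 0.936% and 0.891%. All alternatives named were planned, except that the ribosomal protein genes and the sequence content were looked at after the data were seen.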

Other observations

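Akirin2 and Uchl5, of the wider pathway, were at their lowest in dome 3 of shControl-CM, the library that stood apart. Akirin2, which brings proteasomes into the nucleus, measured 66.6, 46.4 and 2.72 CPM in domes 1 to 3 of shControl-CM, 39.1, 61.0 and 45.3 CPM with shBrca2-CM and 114 and 136 CPM with control medium. Uchl5, a deubiquitinase of the 19S particle, was at 26.3, 22.2 and 4.08 CPM with shControl-CM, 23.2, 19.9 and 13.3 CPM with shBrca2-CM and 45.5 and 52.9 CPM with control medium. In both genes all 6 conditioned-medium domes were below the controls. Akirin2 fell by 1.70 on the log2 scale with shControl-CM (adjusted p = 0.0536, edgeR; up to 0.275 without either control dome or dome 2 of shControl-CM, and not called by DESeq2) and by 1.36 with shBrca2-CM (adjusted p = 6.55e-09, edgeR).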
